A study of Mus musculus with 6 samples.

Results

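The Notch receptors *Notch1*, *Notch2* and *Notch3*, the Fringe genes *Lfng*, *Mfng* and *Rfng*, the Deltex genes *Dtx1* and *Dtx4*, and 2 nuclear genes of the pathway, *Rbpj* and *Hes1*, were examined in mature CD4 SP thymocytes with and without Jmjd3 and Utx. All 10 genes had a row on the array that is annotated to that gene alone, and they are 10 of 19752 genes measured. Only *Rbpj* had 2 such rows, and the one with the higher mean over the 6 arrays was used. RNA came from sorted Vα2hi CD24lo CD4 SP thymocytes of mice that all carried the OT-II TCR transgene. In the 3 dKO samples, *Cd4*-Cre, which is active from the DP stage onwards, had deleted floxed alleles of *Jmjd3* (*Kdm6b*) and *Utx* (*Kdm6a*), whereas the 3 wild-type samples came from Cre-negative animals. The methods describe these controls as littermates with floxed alleles, and the mice as adult and mostly female. Both enzymes remove methyl groups from a trimethylated lysine of histone H3 (H3K27Me3), and the question addressed was which transcripts differ when neither is present. The labels call the arrays of a genotype biological replicates without tying each to a mouse, so p-values cover only the spread among the arrays.

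Notch receptors are cleaved when they bind Delta-like or Jagged ligands on a neighbouring cell, and the freed intracellular part enters the nucleus, where it joins Rbpj and Mastermind proteins to activate transcription. Fringe enzymes add *N*-acetylglucosamine to fucose on the extracellular part of the receptor and so change which ligands it answers to. In the thymus, signals through Notch1 from Dll4 on epithelial cells commit progenitors to the T-cell lineage and accompany them towards the DP stage. Many Notch target genes are normally turned down by that stage. *Dtx1* and *Hes1* are well-known targets of Notch in T-cell precursors, and the Deltex proteins are ubiquitin ligases that bind the intracellular part of the receptor.

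Promoter sequences were available in the RefSeq table (GRCm38.p6) for 7 of the 10 genes, as 8 windows. The 250 bases before the start of transcription are shown for 3 genes that were lower in dKO cells and for *Rbpj*, which was not called, because the letters TGGGAA, the core of the sequence that Rbpj binds, occurred in only some of them. Capitals mark TGGGAA on either strand (TGGGAA or TTCCCA), with no overlap between matches.
Lfng (chr5:140607091-140607340, plus strand): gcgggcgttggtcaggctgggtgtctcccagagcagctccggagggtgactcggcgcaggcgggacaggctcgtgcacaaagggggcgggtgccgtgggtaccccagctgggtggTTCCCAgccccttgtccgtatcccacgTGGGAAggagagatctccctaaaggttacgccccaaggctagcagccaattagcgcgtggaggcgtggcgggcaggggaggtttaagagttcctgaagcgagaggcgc
Rbpj (chr5:53590096-53590345, plus strand): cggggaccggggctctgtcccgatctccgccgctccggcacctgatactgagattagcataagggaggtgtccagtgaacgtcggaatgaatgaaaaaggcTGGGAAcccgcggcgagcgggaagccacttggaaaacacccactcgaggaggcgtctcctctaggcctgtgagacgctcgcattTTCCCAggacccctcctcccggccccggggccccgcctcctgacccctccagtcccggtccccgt
Notch1 (chr2:26503823-26504072, minus strand): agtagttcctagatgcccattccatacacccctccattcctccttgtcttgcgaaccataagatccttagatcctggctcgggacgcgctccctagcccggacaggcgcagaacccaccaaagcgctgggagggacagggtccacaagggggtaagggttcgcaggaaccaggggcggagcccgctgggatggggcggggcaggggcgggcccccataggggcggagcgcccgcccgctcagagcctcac
Dtx1 (chr5:120711670-120711919, minus strand): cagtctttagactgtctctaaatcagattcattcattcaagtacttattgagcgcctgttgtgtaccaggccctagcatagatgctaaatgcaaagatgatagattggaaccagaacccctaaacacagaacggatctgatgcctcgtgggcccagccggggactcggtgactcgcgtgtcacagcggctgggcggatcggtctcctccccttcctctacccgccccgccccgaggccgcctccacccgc
The *Lfng* window held 2 matches, 135 and 108 bases before the start, and the upstream *Rbpj* window also held 2, at 149 and 65 bases. A second, overlapping *Rbpj* window held 1, which was the same site as the match at 65 bases in the upstream window. No match was present in the windows of *Notch1*, *Notch2*, *Notch3*, *Rfng* or *Dtx1*. Of all 32851 windows of this length in the table, 21.6% held at least 1 match and 2.77% held 2 or more. Windows with 2 matches thus belonged both to a gene that was lower and to one that was not called. The number of CpG dinucleotides was 15 in the *Dtx1* window, 16 in *Notch1*, 17 in *Notch3*, 18 in *Lfng*, 21 and 25 in the *Rbpj* windows, and 34 in both *Notch2* and *Rfng*, against a median of 6 over all windows.

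*Kdm6a*, encoding Utx, was lower in all dKO samples, with log2 values of 10.16, 10.11 and 10.20 in wild-type and of 9.48, 9.40 and 9.58 in dKO samples. *Kdm6b*, encoding Jmjd3, differed by -0.09 (adjusted p = 0.32). Each value averages probes along a transcript of which Cre removes only some exons, so neither measures the deletion. Of 8 measured markers of mature CD4 SP cells, 2 were lower (25%, against 10% of all genes). They were *Cd5* (log2 fold change -0.43, adjusted p = 0.0023) and *Zbtb7b* (-0.27, adjusted p = 0.022). *Zbtb7b* was at 83.2% of the wild-type level here, whereas the study, by its own analysis of the arrays, describes it as not reduced. Of the others, 1 was higher (12.5%, against 13.1% of all genes), *Cd28* by 0.24 (adjusted p = 0.0058), and 5 were not called. Among these, *Cd4* and *Cd3e* had mean log2 values of 12.21 and 13.06 in wild-type samples. Array medians lay between 6.27 and 6.32. Among markers of other cells, 1 of 8 for B cells was called (lower, 12.5%, against 10% of all genes) and none of 3 for erythroid cells. Of 9 for thymic epithelium, 2 were lower and 1 was higher (22.2% and 11.1%, against 10% and 13.1% of all genes). Of 13 for DN and DP thymocytes, 5 were lower and 3 higher (38.5% and 23.1%, against 10% and 13.1% of all genes). The log2 fold changes of those higher were 1.52 (*Dntt*), 0.54 (*Cd8b1*) and 0.44 (*Cd1d1*). Those lower had -1.09 (*Cd44*), -0.95 (*Il2ra*), -0.55 (*Rag1*), -0.25 (*Arpp21*) and -0.24 (*Themis*). A difference in stage between the genotypes was not tested. dKO replicate 1 was the highest dKO array for 6 of 10 markers of myeloid and dendritic cells and the lowest for 3. *Lyz2*, encoding lysozyme, had log2 values of 5.35, 5.43 and 5.03 in wild-type and of 6.75, 6.02 and 5.48 in dKO samples, and *Cd74*, encoding the MHC II invariant chain, of 6.83, 6.62 and 6.22 and of 7.73, 7.04 and 6.36. *Itgam*, encoding CD11b, was lower in all dKO samples (log2 fold change -0.78, adjusted p = 6.8e-05), and *Csf1r* and *Siglech* were lowest in dKO replicate 1. The mean log2 level of all 10 markers ranged from 5.6 to 5.77 in wild-type and from 5.61 to 6.10 in dKO samples. Of these 10 markers, 1 was higher (*Lyz2*) and 1 was lower (*Itgam*), 10% each, against 13.1% and 10% of all genes. The part of these cells in the results was not tested, and each decrease among the 10 genes is given also without dKO replicate 1.

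In dKO cells 4 of the 10 genes were lower, *Dtx1*, *Lfng*, *Dtx4* and *Notch1*, and the other 6 were not called in either direction (limma, adjusted p under 0.05 over all genes). Over all 19752 genes, 10% were lower and 13.1% were higher by the same test. After cyclic loess normalization that split turned, to 2376 genes lower and 2153 higher, from 1976 and 2587. The decreases lay between 1.21-fold and 1.39-fold. In bulk samples such as these, fewer cells expressing a gene and less RNA per cell cannot be told apart. For each of these 4 genes the highest dKO array was lower than the lowest wild-type array, as for 16.5% of all genes, and for none of the 10 genes was the reverse seen, against 21.2% of all genes. The study itself named *Lfng* from these arrays' cells, so that decrease is not independent evidence. It also reports lower *Lfng* in dKO cells by RT-PCR on sample sets independent of one another. Whether these included the RNA of the arrays is not stated. Its discussion counts *Lfng* among genes whose H3K27Me3 clearance and expression depend on Jmjd3 and Utx, and which are induced late in thymocyte differentiation. The study describes these enzymes as acting redundantly. Across the 10 genes, the log2 fold changes had a median of -0.07, against 0.01 for all genes.

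**Figure D1:**
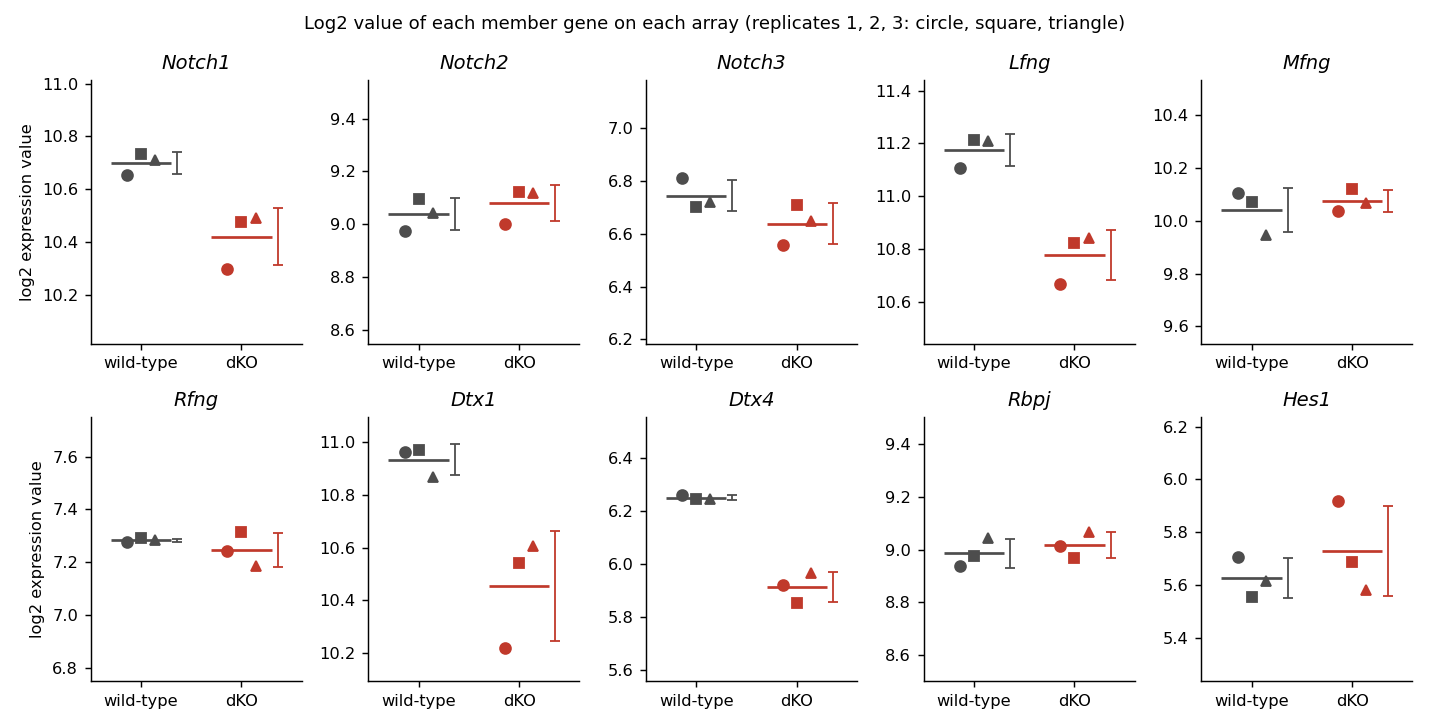
Log2 expression value (vertical axes, each spanning 1 log2 unit around its own gene) of the 10 genes on the 3 wild-type (grey) and 3 dKO (red) arrays, with circle, square and triangle for replicates 1, 2 and 3, a line at the mean and a bar of 1 SD beside it. The genotypes separate for Notch1, Lfng, Dtx1 and Dtx4 and overlap for the other 6 genes, and dKO replicate 1 is the lowest point for Notch1, Lfng and Dtx1.

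*Notch1*, which encodes the main Notch receptor of developing T-cells, had log2 values of 10.65, 10.73 and 10.71 in the wild-type samples and of 10.30, 10.47 and 10.49 in the dKO samples. The dKO values were all lower, with dKO replicate 1 lowest. The mean fell from 10.70 ± 0.04 to 10.42 ± 0.11 (SD, n = 3 each), leaving 82.4% of the level in wild-type cells (log2 fold change -0.28, standard error 0.06, 95% interval -0.41 to -0.14, adjusted p = 0.0076 from limma). Without dKO replicate 1 the log2 fold change was -0.22 (adjusted p = 0.0192), and with an unpaired test without moderated variances, called the unmoderated test here, the call was lost (adjusted p = 0.0778).

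*Notch2*, whose product is best known in marginal zone B cells, had log2 values of 8.97, 9.09 and 9.04 in wild-type and of 9.0, 9.12 and 9.12 in dKO samples. The ranges overlapped (log2 fold change 0.04, 95% interval -0.08 to 0.16, adjusted p = 0.66), and the sign turned after cyclic loess normalization (-0.0012). *Notch3*, a receptor gene that Notch1 activates in immature thymocytes, had log2 values of 6.81, 6.70 and 6.72 in wild-type and of 6.56, 6.71 and 6.65 in dKO samples. Only dKO replicate 2 reached the wild-type range. The log2 fold change of *Notch3* was -0.11 with a 95% interval of -0.23 to 0.02 (adjusted p = 0.22). The point estimate of *Notch1* lay outside that interval, but the intervals of both genes overlapped (-0.41 to -0.14 for *Notch1*). Whether *Notch1* and *Notch3* changed unequally was not tested. The remaining receptor gene, *Notch4*, known from blood vessels, differed by -0.08 (adjusted p = 0.53) at a wild-type level of 6.52.

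Whether *Notch1* and *Notch2* changed unequally was tested on the difference of their log2 values within each array, which is not a ratio of transcript amounts because each gene has its own probes. This difference was 1.68, 1.64 and 1.67 in the wild-type samples and 1.30, 1.35 and 1.37 in the dKO samples. It was lower in all 3 dKO samples, by 0.32 on the log2 scale (two-sided exact permutation test, p = 0.10, adjusted p = 0.17 over 5 paralog pairs). With 3 samples against 3, 0.10 is the smallest p that this test can give.

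*Lfng* encodes Lunatic fringe, which in immature thymocytes strengthens the response of Notch1 to Delta-like ligands. Its log2 values were 11.11, 11.21 and 11.21 in the wild-type and 10.67, 10.82 and 10.84 in the dKO samples. The groups were separated by more than the spread within either, and dKO replicate 1 was again lowest. The mean fell from 11.18 ± 0.06 to 10.78 ± 0.09 (SD, n = 3 each), a 1.32-fold decrease (log2 fold change -0.40, 95% interval -0.53 to -0.27, adjusted p = 0.00091 from limma). The call held in all 15 alternatives tried, with log2 fold changes between -0.44 and -0.34 and adjusted p up to 0.036.

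*Mfng* encodes Manic fringe, a related glycosyltransferase. It had log2 values of 10.11, 10.07 and 9.95 in wild-type and of 10.04, 10.12 and 10.07 in dKO samples, which overlapped. The difference was 0.03 (95% interval -0.09 to 0.16, adjusted p = 0.74) and turned negative after cyclic loess normalization (-0.0119) and without wild-type replicate 3 (-0.0132). *Rfng*, for Radical fringe, had log2 values of 7.28, 7.29 and 7.28 in wild-type and of 7.24, 7.31 and 7.19 in dKO samples. Its wild-type values lay within the range of the dKO values, and the difference was -0.04 (95% interval -0.15 to 0.07, adjusted p = 0.68). The 95% intervals of *Mfng* and *Rfng* both leave out a decrease of the size measured for *Lfng*.

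Within each array, the log2 value of *Lfng* exceeded that of *Mfng* by 1.00, 1.14 and 1.26 in the wild-type samples and by 0.63, 0.70 and 0.77 in the dKO samples. The dKO differences were all smaller, by 0.43 on average (exact permutation test, p = 0.10, adjusted p = 0.17). Against *Rfng*, the *Lfng* value fell by 0.36 (p = 0.10, adjusted p = 0.17, the same exact test), again with no overlap of the genotypes. *Mfng* and *Rfng* differed from each other by 2.76 ± 0.09 in wild-type and 2.83 ± 0.05 in dKO samples (SD, n = 3 each), with overlap (exact permutation test, p = 0.40, adjusted p = 0.40). After repeated quantile normalization the last change, 0.07 as deposited, was 0.11 (exact permutation test, p = 0.10).

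**Figure D2:**
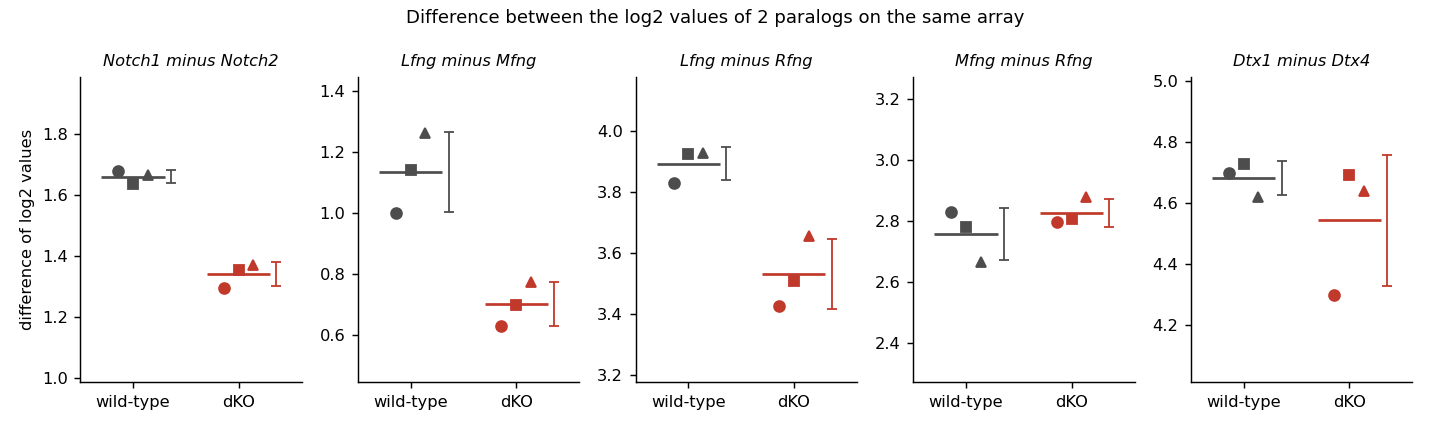
Difference between the log2 values of 2 paralogs on the same array (vertical axes, 1 log2 unit each) in wild-type (grey) and dKO (red) samples, with circle, square and triangle for replicates 1, 2 and 3, a line at the mean and a bar of 1 SD. The genotypes do not overlap for Notch1 minus Notch2, Lfng minus Mfng and Lfng minus Rfng, and they overlap for Mfng minus Rfng and Dtx1 minus Dtx4.

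*Dtx1*, encoding Deltex1, a ubiquitin ligase induced by Notch in T-cell precursors and also linked to T-cell anergy, showed the lowest log2 fold change of the 10 genes. Its log2 values were 10.96, 10.97 and 10.87 in wild-type and 10.22, 10.54 and 10.61 in dKO samples. All dKO values lay below the wild-type ones, but they were spread over a wider range, with dKO replicate 1 well below the others. The mean fell from 10.93 ± 0.06 to 10.46 ± 0.21 (SD, n = 3 each), a 1.39-fold decrease to 71.8% of the level in wild-type cells (log2 fold change -0.48, standard error 0.09, 95% interval -0.68 to -0.28, adjusted p = 0.0038 from limma). Of all genes, 2.4% had a lower log2 fold change. The wild-type level of *Dtx1* in these mature cells lay at the 96.9 percentile of all genes. Without dKO replicate 1 the log2 fold change was -0.36 and the call stood (adjusted p = 0.0027), whereas the unmoderated test lost it (adjusted p = 0.0936).

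*Dtx4*, a relative of *Dtx1*, had log2 values of 6.26, 6.24 and 6.25 in wild-type and of 5.92, 5.85 and 5.97 in dKO samples. The wild-type values were nearly equal and the dKO values all lower, here with dKO replicate 2 lowest. The mean fell from 6.25 ± 0.01 to 5.91 ± 0.06 (SD, n = 3 each), a 1.27-fold decrease (log2 fold change -0.34, 95% interval -0.45 to -0.23, adjusted p = 0.00065). The wild-type level lay at the 49.2 percentile of all genes. For comparison, 95% of 1027 olfactory receptor genes, which T-cells are not known to use, had a level under 5.65 on these arrays. The call held in all 14 alternatives in which *Dtx4* was tested.

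The difference of *Dtx1* and *Dtx4* within an array was 4.68 ± 0.06 in wild-type and 4.54 ± 0.21 in dKO samples (SD, n = 3 each) and overlapped between genotypes (exact permutation test, p = 0.40, adjusted p = 0.40). Its change was -0.14, and -0.0154 without dKO replicate 1. None of the other Deltex genes passed the test. *Dtx3* differed by -0.13 on the log2 scale (adjusted p = 0.23), *Dtx2* by -0.09 (adjusted p = 0.36) and *Dtx3l* by -0.03 (adjusted p = 0.77). All 5 Deltex estimates were below 0, and those of *Dtx1* and *Dtx4* alone were called.

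*Rbpj* encodes the DNA-binding protein through which all Notch receptors act. It had log2 values of 8.94, 8.97 and 9.04 in wild-type and of 9.01, 8.97 and 9.07 in dKO samples, and the groups overlapped. The difference was 0.03 (95% interval -0.08 to 0.14, adjusted p = 0.74) and changed sign after cyclic loess normalization (-0.0126) and with the mean of its 2 rows (-0.0305). The dimmer row, with a wild-type mean of 4.77, differed by -0.09 (adjusted p = 0.32 over all rows).

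*Hes1*, which encodes a repressor induced directly by Notch, had log2 values of 5.71, 5.56 and 5.61 in wild-type and of 5.92, 5.69 and 5.58 in dKO samples. dKO replicate 1 was the only array above the wild-type range. The mean was 5.62 ± 0.08 in wild-type and 5.73 ± 0.17 in dKO samples (SD, n = 3 each), a log2 fold change of 0.10 (95% interval -0.08 to 0.29, adjusted p = 0.44) that was 0.01 without dKO replicate 1. These levels lay close to the 5.65 under which 95% of olfactory receptor genes fell.

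**Figure D3:**
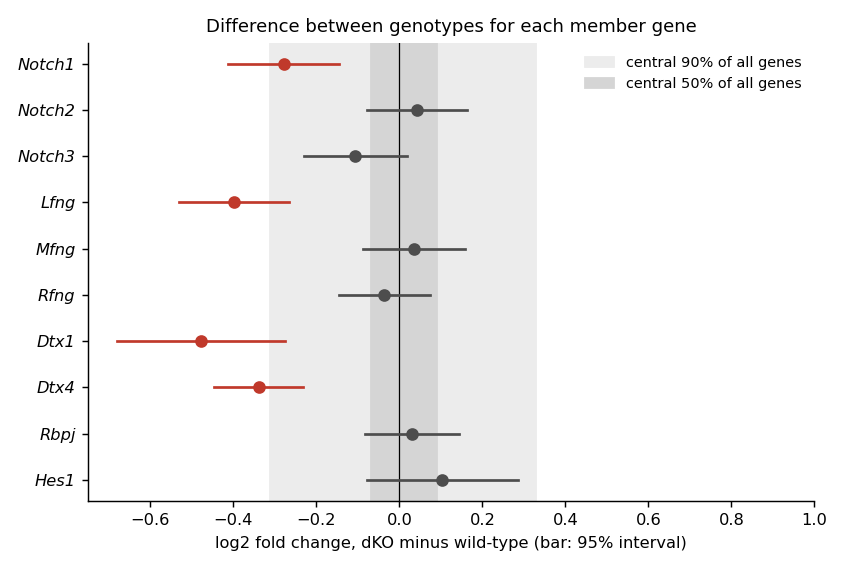
Log2 fold change (dKO minus wild-type, horizontal axis) of each of the 10 genes (rows) as a point with its 95% interval from limma, red where lower at an adjusted p under 0.05 and grey otherwise. Shading marks the central 90% (-0.31 to 0.33, light) and the central 50% (-0.07 to 0.09, dark) of all 19752 genes, and the estimates of Lfng, Dtx1 and Dtx4 lie below the light band.

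The dKO arrays were not alike for these genes. dKO replicate 1 was the lowest dKO array for 3 of the 4 genes that were lower (*Notch1*, *Lfng* and *Dtx1*) and for 6 of all 10, against 45.6% of the 1976 genes called lower and 38.9% of all genes. With dKO replicate 1 left out, the 4 genes remained lower, at log2 fold changes of -0.36 for *Dtx1*, -0.34 for *Lfng*, -0.34 for *Dtx4* and -0.22 for *Notch1*.

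Among 90 other measured genes of the pathway, 12 were lower (13.3%) and 13 were higher (14.4%), close to the 10% and 13.1% over all genes. Their median log2 fold change was 0.01. With the unmoderated test 5 were lower and 9 were higher, against 1173 and 1392 of all 19752 genes. None of the 9 genes for ligands, ligand-like proteins and *Notch4* was called, and their log2 fold changes lay between -0.10 and 0.09. The 2 of them with the highest wild-type levels, *Dlk1* and *Dlk2*, encode non-canonical Delta-like proteins and had wild-type log2 values of 7.01 and 6.87. Their log2 fold changes were 0.09 (adjusted p = 0.31) and -0.06 (adjusted p = 0.56).

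Of 15 measured genes for receptor cleavage and glycosylation, 3 were higher and 1 was lower (20% and 6.7%, against 13.1% and 10% of all genes). *Eogt*, an *N*-acetylglucosamine transferase gene, had log2 values of 8.10, 8.13 and 8.09 in wild-type and of 8.57, 8.34 and 8.39 in dKO samples (log2 fold change 0.33, adjusted p = 0.0039 from limma). *Xxylt1*, encoding a xylosyltransferase, rose by 0.31 (adjusted p = 0.0031), and *Poglut1*, encoding the *O*-glucosyltransferase that starts the same sugar chain, by 0.26 (adjusted p = 0.0053). *Gxylt1* and *Gxylt2*, whose products add the first xylose to that chain, differed by -0.07 (adjusted p = 0.55) and -0.01 (adjusted p = 0.93). *Psen2*, for presenilin 2, a catalytic subunit of γ-secretase, fell by 0.23 (adjusted p = 0.0081). The unmoderated test did not call *Eogt* (adjusted p = 0.0646) or *Xxylt1* (0.0501).

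Around Rbpj, 1 of 8 coactivator genes was lower and 1 was higher, and of 14 corepressor genes 2 were lower and 4 higher. These are shares of 12.5% each among coactivators and of 14.3% and 28.6% among corepressors, against 10% and 13.1% of all genes. *Kat2b*, encoding the acetyltransferase PCAF, had log2 values of 8.48, 8.55 and 8.55 in wild-type and of 7.90, 7.96 and 7.96 in dKO samples, a tight separation (66.8% of the wild-type level, adjusted p = 1.9e-05). *Maml3*, a Mastermind gene, rose 1.36-fold (log2 fold change 0.44, adjusted p = 0.00064). Among corepressors, *Tle1* and *Tle4*, which encode Groucho proteins that Hes factors recruit, rose by 0.48 (adjusted p = 0.00055) and 0.25 (adjusted p = 0.0028). The family went both ways, since *Tle3* and *Tle5* were lower, with log2 fold changes of -0.21 (adjusted p = 0.014) and -0.22 (adjusted p = 0.0067), and *Tle2* differed by -0.06 (adjusted p = 0.47). The histone deacetylase genes *Hdac2* and *Hdac1* rose by 0.31 (adjusted p = 0.0026) and 0.25 (adjusted p = 0.0042).

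Of 19 genes for traffic and turnover of Notch proteins, 5 were lower and 1 was higher (26.3% and 5.3%, against 10% and 13.1% of all genes). *Neurl3*, of the Neuralized family of ubiquitin ligases, had log2 values of 7.74, 7.86 and 7.70 in wild-type and of 6.67, 6.49 and 6.35 in dKO samples, 2.40-fold lower (adjusted p = 3.8e-06 from limma). *Nedd4*, encoding a ubiquitin ligase whose *Drosophila* homolog acts on Notch, moved the other way, from 8.22, 8.20 and 8.22 to 9.21, 9.35 and 9.32. It was 2.12-fold higher (adjusted p = 5.7e-07). *Aak1*, for a kinase of the endocytic adaptor machinery, fell by 0.36 (adjusted p = 0.0023) and *Cbl*, for a ubiquitin ligase of receptor tyrosine kinases and TCR signalling, by 0.28 (adjusted p = 0.0066), both not called by the unmoderated test (adjusted p = 0.0531 and 0.071).

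Of 11 further Hes, Hey and related factors, *Hes6* and *Heyl* were higher (18.2%, against 13.1% of all genes) and none was lower (against 10%). *Hes6*, whose product counteracts Hes1, rose by 0.25 (adjusted p = 0.034), and *Heyl* by 0.17 (adjusted p = 0.036). Both calls were lost in 7 of 15 alternatives, among them the one without dKO replicate 1 (adjusted p = 0.0778 and 0.108). Of 17 genes that Notch activates in early T-cells or their leukaemias, 3 were lower and 3 higher (17.6% each, against 10% and 13.1% of all genes). *Igf1r*, for the IGF1 receptor, was 2.24-fold higher (adjusted p = 6.8e-06). *Il2ra*, encoding CD25, had log2 values of 8.96, 8.95 and 8.96 in wild-type and of 8.51, 7.89 and 7.64 in dKO samples, a 1.93-fold decrease (adjusted p = 0.0029, and 0.102 with the unmoderated test). Here dKO replicate 1 was the highest dKO array, unlike for *Notch1*, *Lfng* and *Dtx1*, and without it the log2 fold change was -1.19. *Gata3* fell by 0.24 (adjusted p = 0.0093, and 0.0651 with the unmoderated test) and *Il7r* rose by 0.20 (adjusted p = 0.015, and 0.0642 without wild-type replicate 2). *Ptcra* and *Nrarp*, 2 targets closely tied to Notch in precursors, had log2 fold changes of 0.07 (adjusted p = 0.70) and 0.02 (adjusted p = 0.84) at wild-type levels of 5.97 and 5.75, just above the 5.65 under which 95% of olfactory receptor genes fell.

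**Figure D4:**
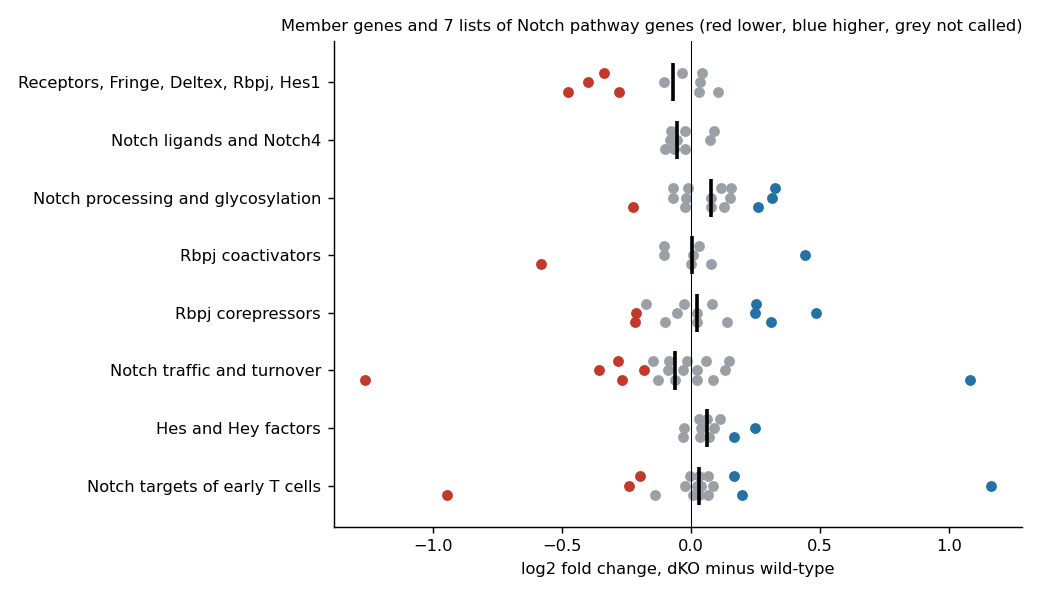
Log2 fold change (dKO minus wild-type, horizontal axis) of the 10 genes described above (top row) and of the measured genes of 7 lists of the Notch pathway (other rows). Points stand for genes, coloured red (lower), blue (higher) or grey (not called) at an adjusted p of 0.05 from limma and spread vertically so that they can be told apart. Black bars mark list medians, -0.07 in the top row and between -0.06 and 0.08 in the others.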

How the data were processed

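Gene expression was measured on 6 Affymetrix Mouse Gene 1.0 ST arrays, as the study's methods name them, 3 wild-type and 3 dKO. The series design text names another array type. Per the labels, the processing tools were Partek and RMA, with no version stated. What the authors deposited are log2 values, 1 per transcript row, for which RMA subtracts background and equalizes the distribution of values between arrays. A shift common to most genes therefore cannot be seen, and folds of dim genes are understated. ChIPseq data were not analysed here.

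Gene symbols of rows came from the array annotation and were brought up to date through Entrez identifiers in a RefSeq table (GRCm38.p6). Of 25254 rows, 21496 had 1 gene symbol, 1565 several and 2193 none, and only the first were used, which left 19752 genes after keeping the brightest row per gene. Some genes of the lists are not reported here. The deposited values were tested in limma 3.58.1 (R 4.3.3) with genotype as the only term and Benjamini-Hochberg adjustment over all genes, at a threshold of 0.05. Paralog differences were tested by two-sided exact permutation over the 6 arrays (scipy 1.17.1 and Python 3.11.15, with matplotlib 3.10.9 for the plots).

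The 10 genes and the lists were chosen with earlier results of these data known. From each pathway list, up to 4 called genes with the smallest p were named (all where 5 or fewer were called), or the 2 brightest where none was called. *Notch4*, *Dtx2*, *Dtx3*, *Dtx3l*, *Ptcra*, *Nrarp*, *Gxylt1*, *Gxylt2*, *Tle2*, *Tle3*, *Tle5* and the named markers of cell types were added once their values were known. Alternatives were quantile or cyclic loess normalization again, keeping the 14814 or 9876 brightest genes, the mean of a gene's rows, all rows, an intensity trend with robust variances, an unmoderated unpaired test, a replicate block and each array left out in turn. The study's methods give the unmoderated test (Student's, two-sided) for comparisons other than the arrays. The number of arrays limits the precision.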

Additional observations from a re-analysis of the deposited data

How the results depend on the processing

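The 4 decreases (*Notch1*, *Lfng*, *Dtx1* and *Dtx4*) kept their direction in all alternatives in which they were tested, and none of the 10 genes was called higher in any. The unmoderated test called 2 of the 10 lower after adjustment (*Lfng* and *Dtx4*). At an unadjusted 0.05 it called 4 of the 10 lower and none higher, beside 2486 decreases and 3285 increases among the 19752 genes. After adjustment it called 1173 genes lower and 1392 higher, against 1976 and 2587, and 5 pathway genes lower against 12. Keeping the brightest 9876 genes left 8 of the 10 genes (*Dtx4* and *Hes1* were dropped) and 3 decreases. Over those 9876 genes, 1887 were lower and 2634 were higher. Signs that turned belonged to genes not called, *Notch2* (-0.0012), *Mfng* (-0.0119) and *Rbpj* (-0.0126) after cyclic loess normalization, *Mfng* without wild-type replicate 3 (-0.0132, and between that and 0.0668 over the arrays left out) and *Rbpj* with the mean of its rows (-0.0305). The causes were not tested. With each array left out in turn, 4 of the 10 genes stayed lower, with 1496 to 1855 genes lower and 1901 to 2259 higher over all, and 8 to 13 pathway genes lower and 10 to 14 higher. With the replicate number as a block, the same 4 of the 10 genes were lower, with 1970 genes lower and 2574 higher over all and 12 pathway genes in each direction. Deviations of same-numbered arrays correlated at 0.099, 0.024 and 0.07 over genes, so the numbers were not taken to pair the samples. Levels close to those of olfactory receptor genes limit *Hes1* and *Dtx4*.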
